A study of Mus musculus with 16 samples.

Results

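Opa1, Mfn1, Mfn2, Dnm1l, Fis1, Mff, Pink1, Bnip3, Bnip3l and Fundc1 are genes of the machinery that joins, divides and removes mitochondria. These 10 genes were taken by symbol from the 55471 genes of the count table, by a rule that reads symbols and no measured value, and each was measured in all 16 libraries of the series. Each library is the skeletal muscle mRNA of 1 male mouse, and which muscle was taken is not given in the sources used here. Of the 16 mice, 10 are labelled heterozygous (Npr1+/-, carrying 1 disrupted allele of the gene of GCA, the receptor of atrial natriuretic peptide) and 6 are wildtype littermates (Npr1+/+). All were backcrossed to C57BL/6J for at least 10 generations, entered the study at 12 weeks of age and ate a high fat diet with 60% of its energy as lipid for 12 weeks, so every value below is from muscle of diet-fed mice. The allele is carried in the whole body and is not restricted to muscle. The mice were kept in 4 cages, numbered 675 to 678, each of which held both genotypes. Mice are named by genotype label and by the replicate number that the labels give them.

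Mitochondria form a network that is remodelled by fusion and fission. Fusion joins the outer membranes through the mitofusins MFN1 and MFN2 and the inner membranes through OPA1, and fission is carried out by DRP1 (the product of Dnm1l), which is recruited from the cytosol to outer membrane proteins such as MFF and FIS1. Damaged or surplus mitochondria are removed by mitophagy, which is started by the kinase PINK1 together with Parkin, or by receptors on the outer membrane that bind the autophagosome, among them BNIP3, NIX (the product of Bnip3l) and FUNDC1. OPA1, MFN1, MFN2 and DRP1 are all GTPases of the dynamin superfamily, whereas the other 6 proteins are adaptors, a kinase and receptors. In skeletal muscle this machinery is known for its part in keeping an oxidative network of mitochondria between the myofibrils.

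Libraries held between 15273472 and 59682677 counts, and each member was counted at least 601 times in every library. Npr1, the targeted gene, was measured at 13.6 ± 3.87 CPM (SD, n = 10) under the label Npr1+/- and at 12.2 ± 1.05 CPM (SD, n = 6) under the label Npr1+/+, where CPM are counts scaled by TMM to a common library size. Its mRNA was no lower in these libraries under the heterozygous label, and each difference below is one between labels. The 8 markers of fast skeletal muscle summed to between 104981 and 178610 CPM in the 16 libraries, so the tissue label was met by its defining genes. Labels do not say how the mice were sampled beyond 1 library each, so p-values measure the spread among these mice.

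The start regions of 4 members are shown, Mfn1 and Mfn2 as the most closely matched pair described below and Opa1 and Bnip3 because they hold a searched word. Each is the 250 bases before the RefSeq transcription start nearest to the start of the gene in the deposited table, on GRCm38.p6 and written 5′ to 3′. Of the 10 members, 9 had a promoter entry. The 5 words searched on both strands were AAGGTCA (the word bound by the estrogen-related receptors), CACGTG (the E-box), ACGTG (here the hypoxia core, a form of the core of the hypoxia response element that lies within the E-box), GTAAACA (the FoxO core) and GCGCATGCG (the core of the NRF1 site). Capitals mark their matches. Other forms of the core of the hypoxia response element were not searched.
Opa1, chr16:29579084-29579333, plus strand: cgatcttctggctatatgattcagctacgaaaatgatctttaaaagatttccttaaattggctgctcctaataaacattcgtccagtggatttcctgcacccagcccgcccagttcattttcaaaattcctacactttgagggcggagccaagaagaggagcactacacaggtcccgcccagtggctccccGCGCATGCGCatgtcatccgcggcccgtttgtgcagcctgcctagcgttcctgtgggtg
Mfn1, chr3:32529232-32529481, plus strand: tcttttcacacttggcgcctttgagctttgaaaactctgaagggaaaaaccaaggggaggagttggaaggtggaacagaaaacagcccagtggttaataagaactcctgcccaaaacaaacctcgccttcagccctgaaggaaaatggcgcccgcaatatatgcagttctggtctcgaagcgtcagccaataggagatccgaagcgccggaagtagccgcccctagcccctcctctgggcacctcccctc
Mfn2, chr4:147904699-147904948, minus strand: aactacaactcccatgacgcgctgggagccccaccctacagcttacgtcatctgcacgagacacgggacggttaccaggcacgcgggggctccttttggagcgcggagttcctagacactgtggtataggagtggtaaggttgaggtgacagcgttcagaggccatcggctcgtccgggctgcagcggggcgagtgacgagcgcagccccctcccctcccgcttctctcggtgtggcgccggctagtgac
Bnip3, chr7:138909507-138909756, minus strand: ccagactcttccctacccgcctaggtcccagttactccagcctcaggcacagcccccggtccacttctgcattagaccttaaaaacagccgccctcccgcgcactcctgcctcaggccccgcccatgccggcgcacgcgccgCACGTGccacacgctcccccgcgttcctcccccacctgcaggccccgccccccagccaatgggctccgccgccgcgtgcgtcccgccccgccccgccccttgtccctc
In Opa1 the NRF1 core was matched on both strands by overlapping letters between bases 59 and 50 before the start, and 1.45% of 32851 RefSeq promoters of this length hold that word. In Bnip3 the E-box, which also holds the hypoxia core on both strands, lay between bases 108 and 103 before the start. The E-box is in 6.02% and the hypoxia core in 16.6% of these promoters. The windows of the other 7 members, Mfn1 and Mfn2 included, held none of the 5 words, which says only that these letters are not in these windows. The window of Fundc1 lies inside the gene as deposited, since its RefSeq start is 318 bases from the deposited start. The estrogen-related receptor word is in 4.08% and the FoxO core in 3.17% of all promoters. The share of G and C was 72.4% for Bnip3, 64.0% for Mfn2, 53.6% for Mfn1 and 52.0% for Opa1, beside a median of 52.4% over all promoters.

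Per unit of length, Pink1 was by far the most abundant member. Levels between genes were compared as TPM, which divides each count by the deposited gene length. Pink1 had 1830 ± 302 TPM (SD, n = 16), Mfn2 312 ± 131 TPM, Fis1 198 ± 24.7 TPM, Bnip3 164 ± 26.8 TPM and Mfn1 102 ± 35.8 TPM. The other 5 members, Mff, Bnip3l, Opa1, Fundc1 and Dnm1l, lay between 58.5 and 39.8 TPM. Pink1 exceeded Mfn2 in 16 of 16 mice, and each of the next 4 genes in this order exceeded its neighbor in at least 13 mice. Mff, Bnip3l, Opa1 and Fundc1 could not be ordered, since a neighbor was exceeded in only 8 or 9 of 16 mice. The order depends on the length used, most of all for Mff, whose deposited length is 9757 bases while its protein-coding transcripts average 1280 bases. With mean lengths of protein-coding transcripts in place of the deposited lengths, Mff (244 TPM) and Fis1 (239 TPM) shared the third place, with Mff higher in 8 of 16 mice. Bnip3 (165 TPM) exceeded Mfn1 (163 TPM) in only 9 of 16 mice. Bnip3l came last with 36.1 TPM, below Dnm1l (38.1 TPM) in 10 of 16 mice.

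No member differed between the genotype labels. Of the 14331 genes tested with edgeR's quasi-likelihood test, with cage and body weight as covariates, 0 had an adjusted p-value under 0.05 (0% of all genes) and 0 of the 10 members did. The unadjusted p-value was under 0.05 for 151 genes (1.05% of all genes) and again 0 of the 10 members. The smallest unadjusted p-value of a member was 0.419, for Dnm1l. The members' log2 fold changes had a median of -0.01, as did those of all genes tested.

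Among the fusion genes, Opa1 lies on chromosome 16 of GRCm38 (chr16:29579334-29654884). Its lowest, median and highest levels were 85.3, 164 and 207 CPM in the 10 Npr1+/- mice and 133, 151 and 183 CPM in the 6 Npr1+/+ mice. The wildtype mice lay wholly inside the heterozygous range, which ran from replicate 10 at the bottom to replicate 7 at the top. The log2 fold change of Npr1+/- against Npr1+/+ was -0.01 (95% interval -0.42 to 0.41, adjusted p = 1.0, edgeR, Benjamini-Hochberg over all genes).

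Mfn1 (chr3:32529465-32579239) and Mfn2 (chr4:147873599-147904687) encode the paired GTPases of outer membrane fusion. Mfn1 had a lowest, median and highest level of 123, 238 and 317 CPM in Npr1+/- mice and of 145, 217 and 250 CPM in Npr1+/+ mice. Mfn2 had 290, 617 and 884 CPM in Npr1+/- mice and 316, 536 and 677 CPM in Npr1+/+ mice. For both genes Npr1+/- replicate 9 was lowest and replicate 7 highest of all 16 mice, Npr1+/+ replicate 1 was second lowest, and the wildtype range lay inside the heterozygous one. The log2 fold change was -0.10 for Mfn1 (95% interval -0.52 to 0.31) and -0.10 for Mfn2 (-0.59 to 0.39), both with adjusted p = 1.0 from the same edgeR test. These signs go against the medians and depended on the fit, since the values were 0.15 and 0.23 with no covariate and 0.16 and 0.24 without body weight. They were 0.21 and 0.32 with the replicate number in place of cage (the replicate block), although equal numbers name different animals.

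Dnm1l (chr16:16312230-16358959) encodes the GTPase that constricts the organelle during fission. It had a lowest, median and highest level of 44, 73.1 and 102 CPM in Npr1+/- mice and of 70.3, 73.7 and 89.6 CPM in Npr1+/+ mice. The wildtype mice were again inside the heterozygous range, where replicate 10 was lowest and replicates 5 and 7 were highest. Its log2 fold change was -0.15 (95% interval -0.53 to 0.23, adjusted p = 1.0 from the same edgeR test).

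Fis1 (chr5:136953275-136966232) and Mff (chr1:82724890-82752390) encode outer membrane proteins to which DRP1 is recruited. Fis1 had a lowest, median and highest level of 79.2, 127 and 201 CPM in Npr1+/- mice and of 116, 132 and 156 CPM in Npr1+/+ mice. Mff had 141, 212 and 274 CPM in Npr1+/- mice and 206, 217 and 290 CPM in Npr1+/+ mice. Npr1+/- replicate 7 was the lowest mouse for both, replicate 9 was the highest for Fis1, and Npr1+/+ replicate 1 was the highest for Mff, the only member whose highest value was in a wildtype mouse. The groups overlapped for both genes. The log2 fold change was -0.10 for Fis1 (95% interval -0.56 to 0.35) and 0.01 for Mff (-0.36 to 0.37), both with adjusted p = 1.0 from the same edgeR test.

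Pink1 (chr4:138313409-138326240) encodes the kinase that accumulates on depolarized mitochondria and recruits Parkin. Its lowest, median and highest levels were 1156, 1778 and 2733 CPM in Npr1+/- mice and 1716, 1863 and 2468 CPM in Npr1+/+ mice. Npr1+/- replicate 7 was lowest and replicate 9 highest, with the wildtype mice between them. The log2 fold change was 0.02 (95% interval -0.38 to 0.42, adjusted p = 1.0 from the same edgeR test).

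Of the 3 mitophagy receptors, Bnip3 (chr7:138890836-138909506) and Bnip3l (chr14:66985239-67008856) are known as hypoxia-induced relatives, and Fundc1 (chrX:17556564-17572325) encodes a receptor whose binding is set by phosphorylation. Bnip3 had a lowest, median and highest level of 79.7, 141 and 268 CPM in Npr1+/- mice and of 102, 152 and 163 CPM in Npr1+/+ mice. Bnip3l had 58.1, 81 and 116 CPM in Npr1+/- mice and 75.3, 82.4 and 88.7 CPM in Npr1+/+ mice. Fundc1 had 27.3, 44.5 and 89.4 CPM in Npr1+/- mice and 33.7, 46.8 and 51.8 CPM in Npr1+/+ mice. Npr1+/- replicate 9 was the highest mouse for all 3, replicate 6 was the lowest for Bnip3 and Bnip3l and replicate 7 the lowest for Fundc1, and every wildtype mouse lay inside the heterozygous range. Their log2 fold changes were -0.01 for Bnip3 (95% interval -0.52 to 0.51), 0.06 for Bnip3l (-0.28 to 0.41) and 0.12 for Fundc1 (-0.39 to 0.64), each with adjusted p = 1.0 from the same edgeR test. Of the 52-base stretches of Bnip3 transcripts, 46.1% also occur in other annotated genes, as do 20.5% of those of Bnip3l. The sharers of Bnip3 are a lincRNA, an antisense gene and pseudogenes with 0 to 65 counts each over all libraries, and that of Bnip3l is a pseudogene with 220 counts, so the values of these 2 genes depend on how shared reads were counted.

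**Figure D1:**
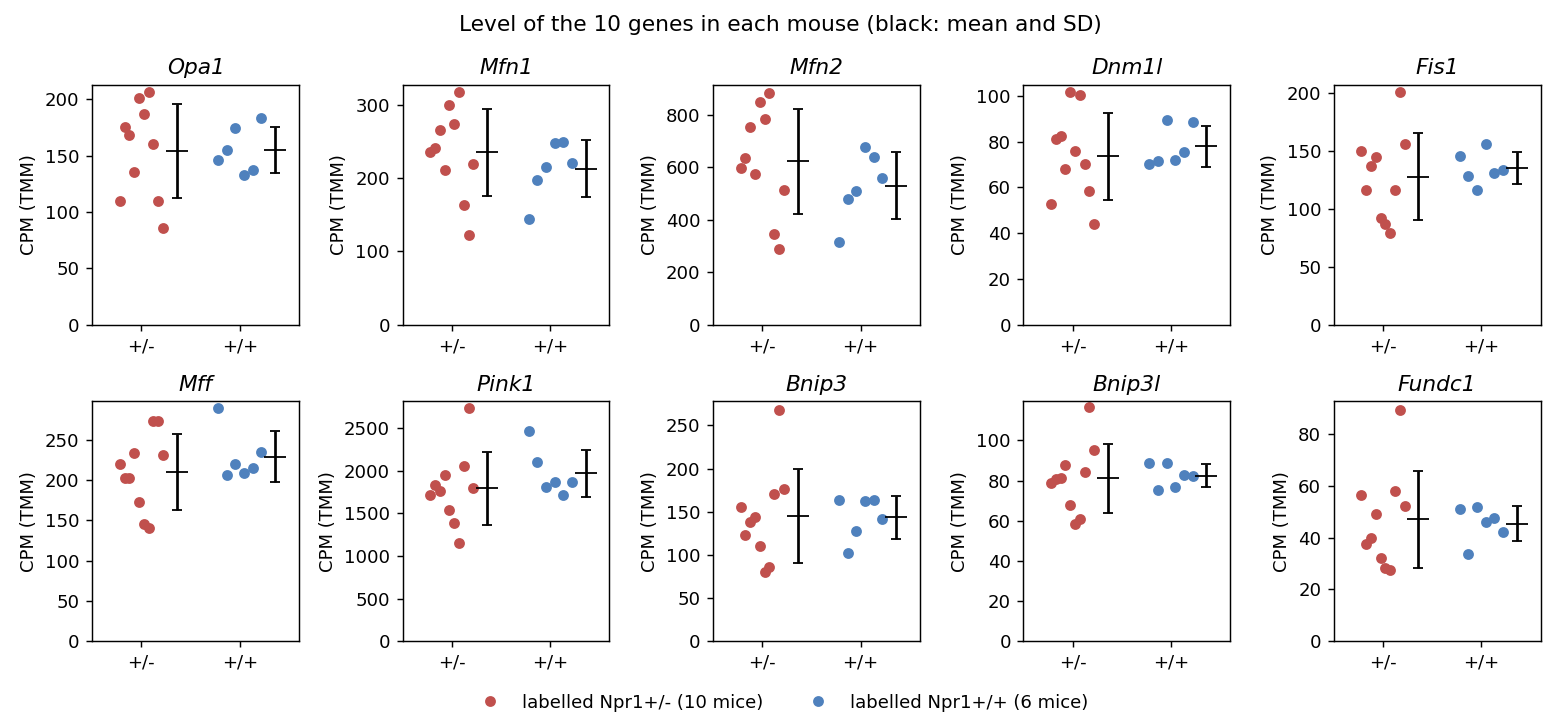
Level of each of the 10 genes in every mouse, as TMM-scaled CPM on a linear axis from 0, with the 10 mice labelled Npr1+/- in red and the 6 labelled Npr1+/+ in blue. Black bars give the mean and SD of each label, and in all 10 panels the groups overlap, with the wildtype points inside the heterozygous range except for 1 mouse for Mff.

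Within cages the direction of the label difference was not shared. For Mfn2, the mean log2 CPM of Npr1+/- minus Npr1+/+ mice was 0.64 in cage 675, -0.43 in cage 676, 1.01 in cage 677 and -0.29 in cage 678. For Pink1 the same differences were -0.32, 0.11, -0.48 and -0.02. Mfn2 and Pink1 thus went opposite ways in 3 of the 4 cages and were both lower in Npr1+/- mice in cage 678. A two-sided exact permutation of the labels within cages gave p-values from 0.264 for Fis1 to 0.889 for Dnm1l, where the smallest p that its 360 arrangements allow is 0.00278. The cages held 1 to 4 mice of a label each. Between cages, 4 genes passed an adjusted p-value under 0.05 (0.0279% of all genes), namely Arrdc2, Cdkn1a, Slc25a25 and Otud1, which were named after their values were seen, and 0 members did. At an unadjusted p-value under 0.05, 1055 genes (7.36% of all genes) and 0 members passed, with the smallest p of a member at 0.147 for Bnip3.

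Over all 16 mice the members varied jointly. The highest mouse exceeded the lowest by 2.0-fold for Bnip3l, 2.06-fold for Mff, 3.05-fold for Mfn2, 3.27-fold for Fundc1 and 3.37-fold for Bnip3. In log2 CPM, the SD over the 16 mice exceeded 0.31, the median of the 7502 genes with at least 10 CPM, for 7 of the 10 members. By the signs of their correlations over the 16 mice, Opa1, Mfn1, Mfn2 and Dnm1l stood on one side and Fis1, Mff, Pink1, Bnip3, Bnip3l and Fundc1 on the other, although not every pair passed its test. This division of the members, which separates the dynamin-family GTPases from the rest, was noticed in the data, and each of the 45 pairs was tested on its own. All 24 correlations between the 4 GTPase genes and the other 6 were negative (Pearson's r from -0.917 to -0.446), all 6 among the GTPase genes were positive (0.444 to 0.987), and all 15 among the other genes were positive (0.763 to 0.943). The same signs held for every pair over the 10 Npr1+/- mice alone. Over the 6 Npr1+/+ mice alone they did not: 6 of the 24 correlations between the blocks were positive (up to 0.426, for Dnm1l and Bnip3l), 2 of the 6 among the GTPase genes were negative (Opa1 with Mfn1 at -0.119 and with Mfn2 at -0.155), and 3 of the 15 among the others were negative (down to -0.307, for Fis1 and Bnip3l).

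Of the 45 pairs, 38 passed an adjusted p-value under 0.05 (permutation test of r over 16 mice, 100000 permutations, Benjamini-Hochberg over the 45). The smallest absolute r among these 38 was 0.542, and 42.0% of all pairs of the 7502 genes with at least 10 CPM reached it, so strong correlation was common in these libraries. The count was 36 on residuals of label, cage and body weight. Those permutations made no allowance for the terms taken out, so their p-values tend to be too small. The count was 23 without Npr1+/- replicates 7 and 9, the mice at the ends of many of these ranges. The share of all gene pairs was not computed for the counts of 36 and 23.

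Mfn1 and Mfn2 were the most closely matched pair, with r = 0.987 (permutation p = 1e-05, the smallest the permutations can give, adjusted p = 6.43e-05) and Spearman's rho = 0.979 (permutation p = 1e-05, adjusted p = 0.00015). The r was 0.984 without Npr1+/- replicate 9 and Npr1+/+ replicate 1, the 2 mice farthest from the median of Mfn1. Only 0.00485% of all gene pairs were as closely correlated. The Mfn2 to Mfn1 ratio of CPM lay between 2.12 and 2.86 in all 16 mice, a 1.35-fold range, whereas Mfn2 itself ranged over 3.05-fold. The ratio was 2.60 ± 0.255 (SD, n = 10) in Npr1+/- mice and 2.47 ± 0.185 (SD, n = 6) in Npr1+/+ mice.

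Opa1, the GTPase of inner membrane fusion, and Dnm1l, the GTPase of fission, were matched in the same way although they act in opposite directions on the network. Their r was 0.947 (permutation p = 1e-05, adjusted p = 6.43e-05), with rho = 0.888 (permutation p = 6e-05, adjusted p = 0.000386) and r = 0.886 without Npr1+/- replicates 1 and 10. Of all gene pairs, 0.497% were as closely correlated. The 4 pairs that join a mitofusin to Opa1 or Dnm1l had r between 0.444 and 0.483 and did not pass by r (adjusted p from 0.0646 to 0.0838, permutation test). By rho 3 of these 4 passed, namely Mfn1 with Dnm1l (adjusted permutation p = 0.0163), Mfn2 with Dnm1l (0.0272) and Opa1 with Mfn1 (0.0411), and the r of Opa1 and Mfn1 was 0.689 without Npr1+/- replicates 1 and 10. Whether the r of these pairs differs from that of the matched pairs was not tested.

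Bnip3 and Fundc1 were the closest pair among the mitophagy receptors, with r = 0.943 (permutation p = 1e-05, adjusted p = 6.43e-05), rho = 0.868 (permutation p = 6e-05, adjusted p = 0.000386) and r = 0.889 without Npr1+/- replicates 6 and 9. Of all gene pairs, 0.621% were as closely correlated. Bnip3l was matched to both, with r = 0.904 for Bnip3 (adjusted p = 0.00015, permutation test) and r = 0.906 for Fundc1 (adjusted p = 6.43e-05, permutation test). Among the 6 wildtype mice alone the r of these 3 pairs lay between 0.352 and 0.804, and among the 10 heterozygous mice between 0.918 and 0.973.

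The most opposed members were the mitofusins and Pink1. For Mfn1 and Pink1 r was -0.917 (permutation p = 1e-05, adjusted p = 6.43e-05) and rho was -0.912 (permutation p = 1e-05, adjusted p = 0.00015), with r = -0.838 without Npr1+/- replicate 9 and Npr1+/+ replicate 1. This held within each label, with r = -0.917 over the 10 Npr1+/- mice and -0.946 over the 6 Npr1+/+ mice. For Mfn2, r was -0.885 with Pink1 and -0.873 with Mff (adjusted p = 6.43e-05 and 0.000208, permutation test). The Pink1 to Mfn2 ratio of CPM therefore ranged from 1.31 in Npr1+/- replicate 7 to 9.44 in Npr1+/- replicate 9, a 7.22-fold range, and was 3.53 ± 2.45 (SD, n = 10) in Npr1+/- mice and 4.08 ± 1.93 (SD, n = 6) in Npr1+/+ mice. Of all gene pairs, 0.587% were as strongly opposed as Mfn1 and Pink1.

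**Figure D2:**
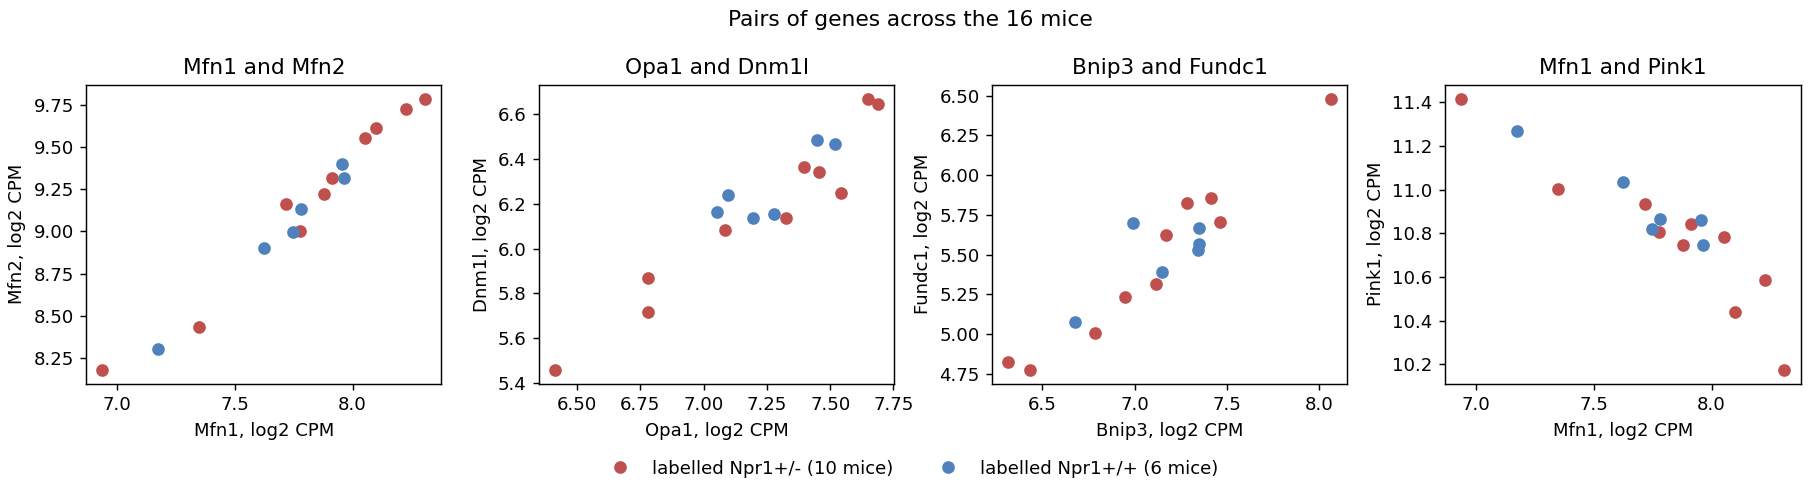
Log2 CPM of the 3 most closely matched pairs and of the most opposed pair, 1 point per mouse, with mice labelled Npr1+/- in red and Npr1+/+ in blue. The points of Mfn1 and Mfn2 lie near a line (r = 0.987), as do those of Opa1 and Dnm1l (0.947) and of Bnip3 and Fundc1 (0.943), and Pink1 falls as Mfn1 rises (-0.917).

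A measure of the whole library moved with all 10 members. For each library, the deviation of every gene with at least 10 CPM from its mean over the 16 libraries was set against its deposited length, and the slope (log2 CPM per doubling of length) ranged from -0.265 in Npr1+/- replicate 9 to 0.415 in Npr1+/- replicate 7, and from -0.137 to 0.060 in Npr1+/+ mice. Libraries with a positive slope hold relatively more of the counts of long genes. The slope was positively correlated with Opa1 (r = 0.862), Dnm1l (0.797), Mfn2 (0.704) and Mfn1 (0.703), and negatively with Fis1 (-0.948), Bnip3 (-0.885), Mff (-0.863), Fundc1 (-0.861), Bnip3l (-0.852) and Pink1 (-0.800). All 10 passed an adjusted p-value under 0.05 over the 120 relations computed between members and measures of the library (adjusted permutation p from 0.0004 to 0.0139). By Spearman's rho 9 of the 10 passed, with Pink1 at rho = -0.603 (adjusted permutation p = 0.0517). Without Npr1+/- replicates 6 and 7, r ranged from 0.603 to 0.893 for the 4 GTPase genes and from -0.895 to -0.575 for the others. Of the 7502 genes, 50.7% were at least as strongly related to the slope as the least related member.

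The deposited lengths, on which the slope rests, are 5194 to 7875 bases for the 4 GTPase genes and 1714 to 3859 bases for the others except Mff, which at 9757 bases is the longest member but fell with the slope. By the mean length of protein-coding transcripts Mff is short (1280 bases) and Bnip3l, at 3249 bases, lies within the range of the GTPase genes (2063 to 3375 bases). The length slope differed among mice of the same label and its part in the joint variation was measured only by taking it out of each gene by regression. On these residuals, 13 of the 45 pairs passed, beside 16.6% of all gene pairs that reached the smallest absolute r of those 13 (0.613). The permutations again made no allowance for the term taken out. Mfn1 and Mfn2 had r = 0.974, Opa1 and Dnm1l 0.850, Bnip3 and Fundc1 0.762, and Mfn1 and Pink1 -0.831 (adjusted permutation p = 0.00045, 0.00158, 0.00637 and 0.00195). Opa1 and Dnm1l changed sides on these residuals. Opa1 had r = 0.790 with Mff and 0.710 with Pink1 where it had been -0.542 and -0.474 before, and Dnm1l had 0.620 with Mff (adjusted permutation p = 0.0406) and 0.528 with Pink1 (adjusted permutation p = 0.113) where it had been -0.499 and -0.446. The division of the members into GTPase genes and others therefore did not hold once the slope was removed, while these 4 pairs did.

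**Figure D3:**
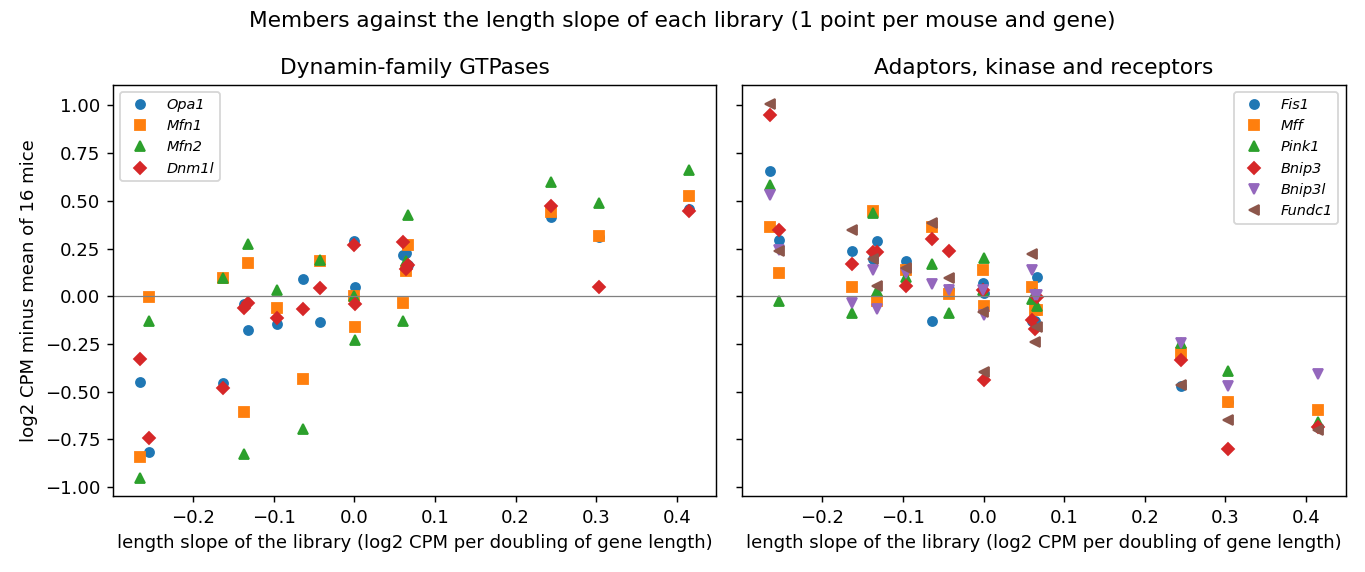
Log2 CPM of each member minus its mean over the 16 mice, against the length slope of the library (log2 CPM per doubling of gene length), with 1 symbol per gene. The 4 GTPase genes rise with the slope and the other 6 fall.

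**Figure D4:**
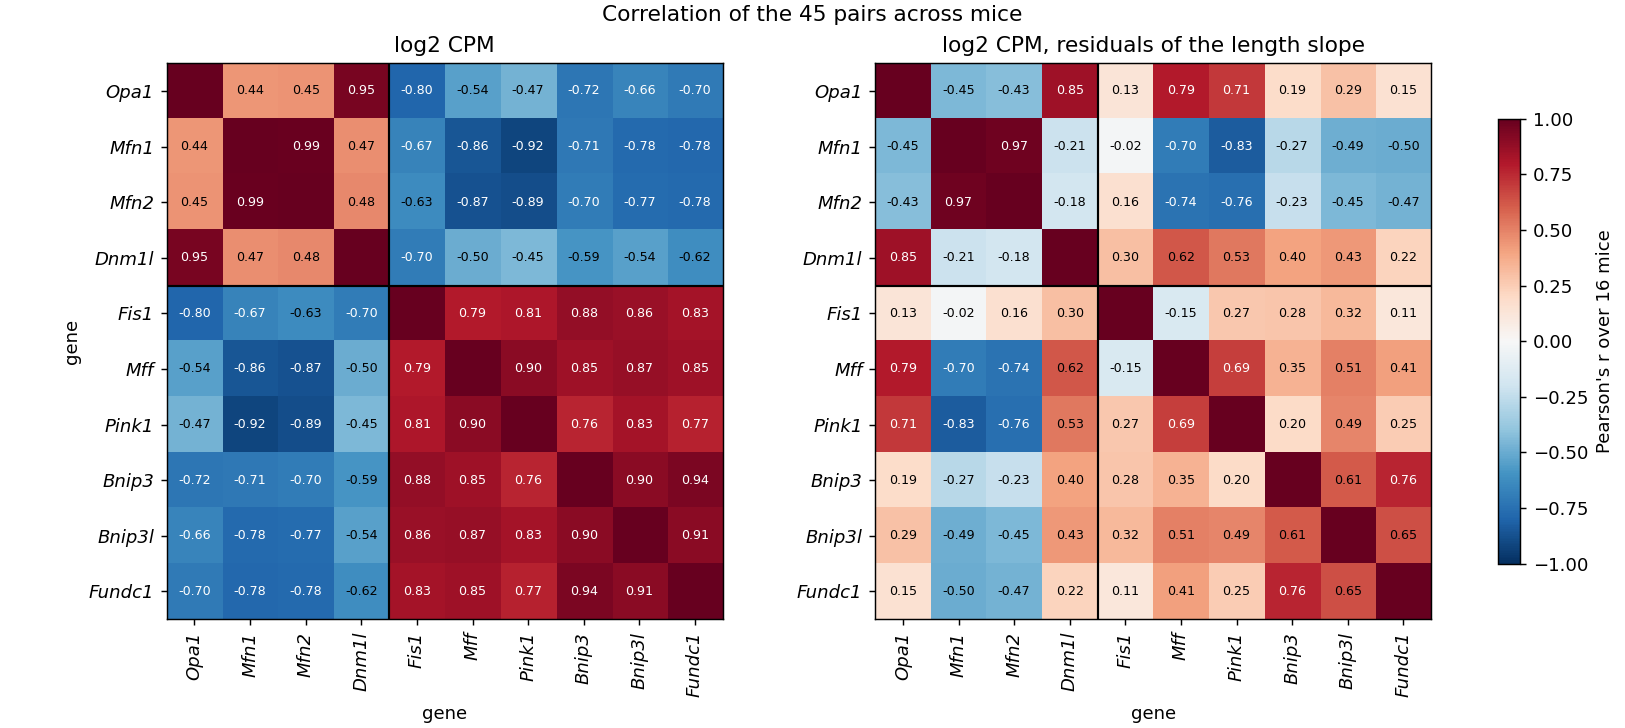
Pearson's r of the 45 pairs over 16 mice, for log2 CPM on the left and for residuals of the length slope on the right, with red for positive and blue for negative values and black lines between the GTPase genes and the others. All 24 values between the blocks are negative on the left, and 13 of them are positive on the right.

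Markers of other cell types moved with the members and with many other genes. Beside each count of members that passed stands the share of the 7502 genes with at least 10 CPM that were at least as strongly related to the same sum as the least related of those members. The summed level of the 6 macrophage markers ranged from 39.6 to 142 CPM in Npr1+/- mice and from 63.9 to 117 CPM in Npr1+/+ mice, lowest in Npr1+/- replicate 7 and highest in replicate 9. The sum was led by Lyz2, a lysozyme gene, at 17.2 and 105 CPM in these 2 mice. Adgre1 (0.637 and 4.13 CPM), Csf1r (6.28 and 11.4 CPM) and Mrc1 (6.32 and 12.7 CPM) rose with it. Cd68, at 1.91 and 1.97 CPM, and Cd163, at 7.28 and 6.92 CPM, did not. The sum was correlated with all 10 members, from -0.822 for Opa1 to 0.853 for Fundc1 (adjusted permutation p from 0.0004 to 0.0312), beside 47.9% of all genes. By rho 7 of these 10 passed, without Mfn1, Mfn2 and Pink1, beside 37.4% of all genes, and the r of Pink1 was 0.622, or 0.222 without Npr1+/- replicates 7 and 9. The 6 endothelial markers, 245 to 518 CPM over all mice, were correlated with Opa1 at r = 0.661 and with Fis1 at -0.718 (adjusted permutation p = 0.0242 and 0.0109). By r 6 members passed for this list (34.5% of all genes) and by rho 3, namely Opa1, Bnip3 and Fundc1 (20.1% of all genes), and the r of Fis1 was -0.343 without Npr1+/- replicates 6 and 7. Its genes did not move as one, since Pecam1 was at 124 CPM in Npr1+/- replicate 7 and 29.7 CPM in replicate 9 but Egfl7 at 72.0 and 169 CPM. The 7 erythroid markers, of which 5 were tested, summed to between 88.1 and 510 CPM and were correlated with Dnm1l at r = -0.797 (adjusted permutation p = 0.00203), where 5 members passed by r (30.7% of all genes) and 3 by rho (4.41% of all genes). The 5 B cell markers, of which 2 were tested, summed to between 72.4 and 263 CPM and were correlated with Dnm1l at -0.893 and with Opa1 at -0.853 (adjusted permutation p = 0.0004 and 0.0006). By r 5 members passed (28.8% of all genes) and by rho 7 (31.2% of all genes). This sum was almost entirely Ighm, the immunoglobulin mu heavy chain, at 243 CPM in Npr1+/- replicate 1 and 262 CPM in replicate 10, its 2 highest mice. The other tested marker, Cd79a, did not follow it, with 0.219 and 0.315 CPM in these mice and its highest level, 0.974 CPM, in Npr1+/+ replicate 4. The 8 fast muscle markers were correlated with Mfn1 at r = 0.597, with Mfn2 at 0.635 and with Mff at -0.601 (adjusted permutation p = 0.0465, 0.0305 and 0.0419), beside 18.9% of all genes. By rho Mfn1 (0.647), Mfn2 (0.653) and Pink1 (-0.694) passed (adjusted permutation p = 0.0327, 0.0321 and 0.0221), beside 13.4% of all genes, and Mff did not. These markers did not move as one either, since in Npr1+/- replicate 7 Myh4 had its highest level, 58769 CPM, and Mylpf and Pvalb their lowest, 7795 and 10289 CPM. None of the members was related to the adipocyte, slow fibre, tendon or Schwann cell markers or to the total count at an adjusted permutation p under 0.05. The part of these measures in the variation of the members was not tested, and in whole tissue fewer cells of a type cannot be told apart from less RNA per cell.

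Body weight ran from 36.5 to 48.1 g in the Npr1+/- mice and from 40.5 to 54.0 g in the Npr1+/+ mice. In the fit with label and cage, 0 of 14331 genes passed for body weight (0% of all genes), and 2449 genes had an unadjusted p-value under 0.05 (17.1% of all genes), among them 2 of the 10 members. These were the mitofusins, with log2 changes per g of -0.092 for Mfn2 (standard error 0.031, unadjusted p = 0.00845, adjusted p = 0.245, edgeR) and -0.069 for Mfn1 (standard error 0.026, unadjusted p = 0.0163, adjusted p = 0.246, edgeR). The 4 GTPase genes had negative and the other 6 members positive coefficients. With no label or cage taken out, Mfn2 was related to body weight by rho (-0.635, adjusted permutation p = 0.0357, beside 2.72% of the 7502 genes as strongly related) but not by r (-0.534, adjusted permutation p = 0.0850), and the other 9 members by neither. The count in the fit turned on 1 mouse, Npr1+/- replicate 3, which at 40.1 g was the lightest of cage 675. Without it 3158 genes passed an adjusted p-value under 0.05 (22.1% of the genes then tested), and so did 6 of the 10 members. Mfn2 (-0.118 per g, adjusted p = 0.0240) and Mfn1 (-0.091, adjusted p = 0.0329) were then lower in heavier mice by edgeR's test, and Mff (0.082, adjusted p = 0.0166), Bnip3l (0.070, adjusted p = 0.0289), Fundc1 (0.107, adjusted p = 0.0301) and Pink1 (0.079, adjusted p = 0.0421) were higher. With every other mouse left out in turn, 0 genes and 0 members passed. Body weight and the length slope had r = -0.393 over the 16 mice (permutation p = 0.133).

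**Figure D5:**
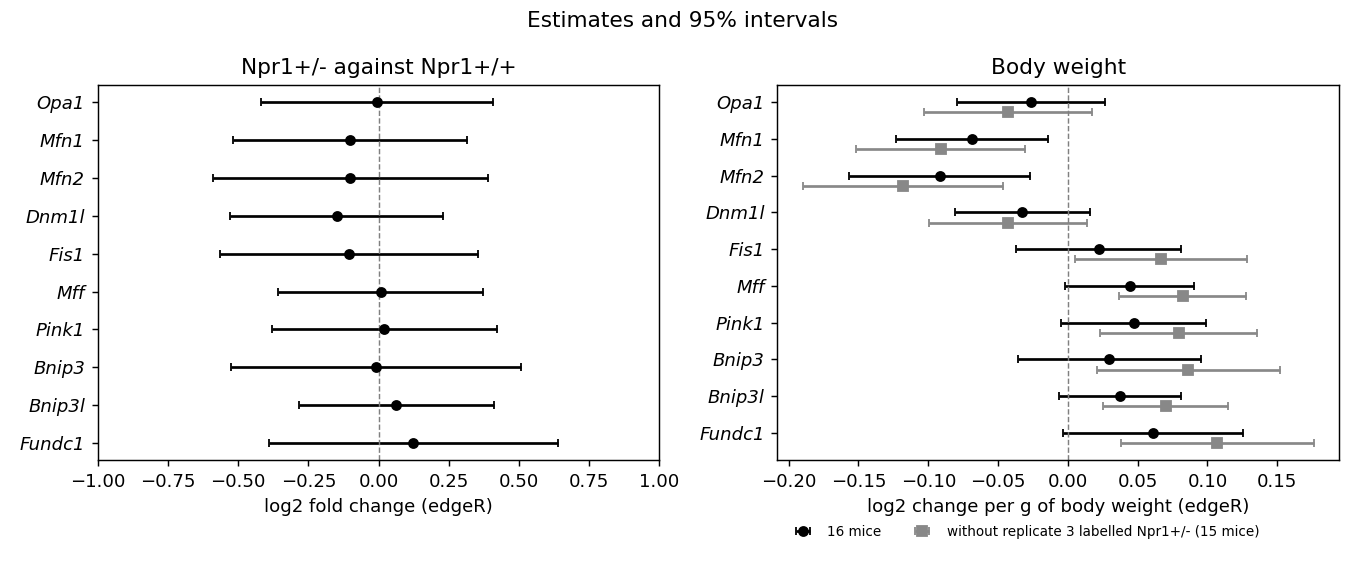
Left, log2 fold change of Npr1+/- against Npr1+/+ for each gene; right, log2 change per g of body weight, with all 16 mice (black) and without Npr1+/- replicate 3 (grey). Points are edgeR estimates with 95% intervals: all 10 intervals on the left include 0, and on the right those of Mfn1 and Mfn2 exclude it with all 16 mice.

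The wider pathways gave no call between the labels either. Lists from textbook roles held 16 genes of fusion and its proteases, 15 of fission, 20 of the PINK1 and Parkin route, 13 of receptor mitophagy, 33 of core autophagy, 18 hypoxia targets, 14 FoxO targets and 12 genes of PGC-1 and the estrogen-related receptors, some shared between lists. In none of the 8 lists did a gene pass an adjusted p-value under 0.05, and their median log2 fold changes lay between -0.06 and 0.04, beside -0.01 for all genes. In the fusion list, 13 of the 15 tested genes had a negative log2 fold change, beside 7390 of all 14331 genes, among them the inner membrane proteases Parl (-0.19, standard error 0.16) and Spg7 (-0.14, standard error 0.19), and 0 had an unadjusted p-value under 0.05. The median of each of the 8 lists changed sign under at least 1 of the alternatives. It went from -0.064 to 0.012 for the fusion list and from 0.036 to -0.124 for receptor mitophagy with the replicate block, and from -0.030 to 0.104 for the FoxO targets with no covariate. Yme1l1, a protease that cleaves OPA1, had the largest positive value of the fusion list among the genes named (0.21, standard error 0.17). Among the PINK1 and Parkin genes, Vdac1, an outer membrane channel, had -0.15 (standard error 0.14) and Tomm7, a subunit of the import pore that holds PINK1, had 0.11 (standard error 0.27). Pptc7, the phosphatase that restrains BNIP3 and NIX, had 0.12 (standard error 0.13), and Fundc2, the relative of Fundc1, had 0.18 (standard error 0.26). The only gene of the 8 lists with an unadjusted p-value under 0.05 was Irs2, an insulin receptor substrate in the FoxO list, with 16.3 ± 10.2 CPM (SD, n = 10) in heterozygous and 6.16 ± 1.81 CPM (SD, n = 6) in wildtype mice and a log2 difference of 0.85 (standard error 0.37, unadjusted p = 0.0330, adjusted p = 1.0 in edgeR). For body weight, 13 of the 14 FoxO targets had negative coefficients and 5 of them an unadjusted p-value under 0.05, beside 7546 negative and 1769 lower at that p-value among all 14331 genes, in the fit that turned on 1 mouse.

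The genes whose levels followed a member most closely over the 16 mice, among those with at least 10 CPM, included Kif1b for Opa1 (r = 0.986) and Ktn1 for Dnm1l (0.983). For Mfn1 they were Rbl2 (0.988) and Mfn2 (0.987), and for Mfn2 they were Ap2a1 (0.990) and Wbp11 (0.988). Fis1 was followed by Rpl19 and Rps15 (both 0.988), genes of ribosomal proteins, Mff by Pex2 (0.983) and Rab5b (0.981), and Pink1 by Urod (0.978) and Nosip (0.976). Among the receptors, Bnip3 was followed by Apoo (0.964) and Suds3 (0.961), Bnip3l by Glod4 (0.971) and Thoc7 (0.964), and Fundc1 by Smim15 (0.970) and Sar1b (0.966). Mfn1 was thus the only member with another member among its 2 closest genes.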

How the data were processed

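Total RNA of mouse skeletal muscle was made into mRNA libraries with the Universal Plus kit per the labels, whereas the study's methods name TruSeq Stranded mRNA, and 52-base paired ends were read. The authors mapped reads with STAR 2.7.2b to GRCm38 and deposited raw counts per gene of GENCODE M24 from featureCounts (1.6.4 in the submitters' processing notes), where both ends were aligned. Gene lengths were deposited beside the counts, their origin not stated, and exceed the genomic span for 550 genes. GENCODE M21 paired 55144 of 55471 identifiers with symbols.

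The members' rule reads symbols alone, but the topic, its members and the lists were chosen with earlier results of these data known. Genes were filtered (filterByExpr), TMM-scaled and tested with edgeR 4.0.16 (glmQLFit, robust and legacy, glmQLFTest) in R 4.3.3 on label, cage and body weight, adjusted by Benjamini-Hochberg over 14331 genes at 0.05. CPM are TMM-scaled, log2 values used a prior count of 2. Pairs were tested on log2 CPM by 100000 permutations. Alternatives used DESeq2 1.42.0, limma 3.58.1, other size factors, filters and covariates, the replicate block, and each mouse left out. Fits were tested on simulated data. Named genes are the members, the 2 tested non-members per list and direction with the smallest label p (a part of them printed), the 2 genes most like each member, Npr1 and markers, and a few of these are not reported here. RefSeq promoters are of GRCm38.p6. Library totals give counting error only. No sample was left out.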

Additional observations from a re-analysis of the deposited data

Results flagged for a closer look

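None of the 20 groups examined (10 members in each genotype label) held a mouse far enough from the others to be set apart by Dixon's criterion, a rule that marks about 1 in 20 groups by chance.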

How the results depend on the processing

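For the label, 0 members passed under any of the alternatives run. Of all genes, DESeq2 called 6, a fit with no filter on low counts 8, and leaving out each mouse between 0 and 3 (2 without Npr1+/- replicate 6, 3 without Npr1+/+ replicate 3), beside 0 in the reported fit and 151 at an unadjusted p-value under 0.05. The sign of a log2 fold change near 0 was not stable. It turned without body weight for Opa1 (0.099), Mfn1 (0.16), Mfn2 (0.24), Mff (-0.17), Pink1 (-0.16), Bnip3l (-0.089) and Fundc1 (-0.13), with DESeq2's size factors in edgeR for Opa1 (0.0052) and Bnip3 (0.019), and with DESeq2 for Opa1 (0.0052) and Bnip3 (0.019). It turned with no filter on low counts for Opa1 (0.0064) and Bnip3 (0.014), as within-cage differences for Opa1 (0.084), Mfn1 (0.15), Mfn2 (0.23), Mff (-0.19), Pink1 (-0.18), Bnip3l (-0.10) and Fundc1 (-0.15), and with no covariate for Mfn1 (0.15), Mfn2 (0.23), Mff (-0.13), Pink1 (-0.13), Bnip3 (0.018) and Bnip3l (-0.023). It also turned without cage for Mff (-0.028), Pink1 (-0.052) and Bnip3 (0.068), with library size only for Mff (-0.0067), with limma-voom for Mff (-0.0048), and with a gene length correction for Mff (-0.032) and Bnip3 (0.029). Leaving out each mouse gave log2 fold changes of -0.16 to 0.093 for Opa1, -0.19 to 0.0039 for Mfn1, -0.21 to 0.060 for Mfn2, -0.30 to -0.0022 for Dnm1l (-0.30 without Npr1+/+ replicate 4 and -0.0022 without replicate 5), -0.20 to 0.013 for Fis1, -0.074 to 0.088 for Mff, -0.058 to 0.089 for Pink1, -0.18 to 0.095 for Bnip3, -0.0018 to 0.14 for Bnip3l and -0.052 to 0.22 for Fundc1. The cause of these turns was not tested.

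Replicate numbers are shared by the labels but name different animals. Same-numbered mice had correlations of 0.033 to 0.17 in their deviations, 1 of 6 above 0.1, and 0 of 6 correlated best with their own number. With the replicate block in place of cage, 2 genes and 0 members passed, and the sign turned for Opa1 (0.012), Mfn1 (0.21), Mfn2 (0.32), Mff (-0.25), Pink1 (-0.23), Bnip3l (-0.12) and Fundc1 (-0.13).

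For body weight, leaving out each mouse gave 0 to 3158 genes and 0 to 6 members, all calls coming without Npr1+/- replicate 3, and Fis1 ran from -0.0024 to 0.067 per g. For cages, DESeq2 called 86 genes, limma-voom 1, and leaving out each mouse 0 to 869 (869 without Npr1+/- replicate 3), with 0 members. Of the 45 pairs, 38 passed, 13 on residuals of the length slope and 23 without Npr1+/- replicates 7 and 9. These settings, the length correction and the transcript lengths were chosen after seeing the data. The 6 most extreme pairs kept their sign and passed under all 5 alternatives run. With transcript lengths, TPM moved by more than the SD over mice for Mfn1 (163), Fis1 (239), Mff (244), Pink1 (1443), Bnip3l (36.1) and Fundc1 (64.5). Each member had at least 601 counts in every library, and whether depth limited the comparisons was not tested. The 95% intervals of the label reached up to 0.64 (log2) with 16 mice.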
